A study of Homo sapiens with 6 samples.

Results

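The core histones H2A, H2B, H3 and H4 form the protein spool on which DNA is wound, and most of their genes are replication-dependent, being transcribed mainly in S phase. Of the 58096 genes in the count files, 65 are protein-coding core histone genes of the HIST1, HIST2, HIST3 and HIST4 families. They were taken by name from GENCODE release 29 (names that begin with HIST1H2, HIST1H3, HIST1H4, HIST2H, HIST3H or HIST4H), which leaves out the linker histone H1 genes and the replacement variants. The 65 divide into 17 H2A, 18 H2B, 15 H3 and 15 H4 genes. Names are those of that release, with the current symbol, where one was matched, in brackets beside the values of a gene.

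The study sequenced total RNA of the human leukaemia line ALL-SIL, which derives from T-cell acute lymphoblastic leukaemia (T-ALL), in 3 libraries from cells given JQ1 (1 µM, 24 h) and 3 labelled DMSO. JQ1 blocks the acetyl-lysine pockets of the BET bromodomain proteins, and DMSO is its solvent. The treatment text is the same for all 6 samples, so the groups rest on the titles, and both groups are the same cell line. Nothing says whether the libraries of a group came from separate cultures, so the p-values speak of differences between libraries whose spread may be technical.

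Depth ran from 15925885 gene counts in JQ1 replicate 3 to 25293884 in DMSO replicate 2, so JQ1 replicate 3 is the shallowest library and its values carry the most counting error. Of 5 tested T-ALL markers 1 was higher (TLX1) and 4 lower in JQ1 (CD2, CD5, CD3E and CD7), and PTCRA was not tested. Among all tested genes 15.9% were called higher and 20.6% lower. The CD7 call held among the fits with 1 library left out only without JQ1 replicate 2 (adjusted p up to 0.14 in the others), and was also lost with relative log expression factors (0.055), upper-quartile factors (0.064), the filter of 1 CPM in 3 libraries (0.055), unstranded counts (0.051) and without mitochondrial and small RNA genes (0.053). Levels are given in CPM, a gene's count relative to the normalised library size. CD3E had 94.8, 109 and 70.3 CPM in JQ1 and 172, 186 and 144 CPM in DMSO. CD2 was near 0 in JQ1, at 0.121, 0.0469 and 0 CPM, against 1.18, 1.14 and 1.86 CPM in DMSO. The 12 markers of other cell types summed to 0.580 to 5.21 CPM in JQ1 and 4.24 to 12.3 CPM in DMSO, most of it from the B-cell gene CD79A, while MS4A1, HBB, HBA1 and COL3A1 were at 0.

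A replication-dependent histone mRNA has no introns in its usual form and ends in a short stem-loop in place of a poly(A) tail. The stem-loop is bound by SLBP, which guides the cut that makes the 3′ end, the export and the translation of the mRNA, and the mRNA is destroyed when DNA synthesis stops. NPAT, activated by cyclin E and CDK2, drives transcription of the clusters in histone locus bodies. Some of the genes also give longer, polyadenylated mRNA in cells that do not divide. The libraries were made with a total RNA kit, which does not select for poly(A), so both forms can be counted.

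The genes lie in tight clusters. On chromosome 6 the HIST1 members fell into 4 blocks: 2 testis genes (25726132 to 25727292), 27 genes in the first block (26020490 to 26285638), 5 in the second (27125897 to 27147515) and 15 in the third (27807444 to 27893843), all on GRCh38. On chromosome 1 there were 11 HIST2 genes (149782689 to 149887916), the outlying copy HIST2H3PS2 and 3 HIST3 genes (228424845 to 228460470), and the single HIST4H4 (H4C16) lies on chromosome 12.

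The stem-loops are shown because they are the shared mark of the family. GENCODE annotates bases after the stop codon for 34 members, and the pattern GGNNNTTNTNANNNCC was found there in 32 of them, 22 to 67 bases past the stop, in 6 forms. For the other 31 members no such bases are annotated, so the search could not be made. The 16 bases of stem and loop are in capitals below, read from the GENCODE transcripts on GRCh38, 5′ to 3′ on the gene's own strand.
HIST2H2BF (chr1:149811878-149811905, minus strand): ccaaaGGCTCTTTTCAGAGCCacttcag
HIST1H2BD (chr6:26158582-26158609, plus strand): ccaaaGGCTCTTTTAAGAGCCacgcatg
HIST1H4H (chr6:26285124-26285151, minus strand): ccaaaGGCCCTTTTCAGGGCCgcccact
HIST1H4I (chr6:27139649-27139676, plus strand): aaaaaGGCCCTTTTTAGGGCCcctaagc
HIST1H2AG (chr6:27133510-27133537, plus strand): ccaacGGCTCTTTTCAGGGCCacccacg
HIST1H3E (chr6:26225591-26225616, plus strand): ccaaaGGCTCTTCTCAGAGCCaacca

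The form of HIST2H2BF was the commonest, in 17 H2A, H2B and H3 genes. That of HIST1H4H was found in 5 genes, all H4, and that of HIST1H2BD in 5 H2B and H3 genes. HIST1H4I shared its form with HIST2H4A and HIST2H4B only. HIST1H2AG and HIST1H3E each had a form found in no other member.

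Promoters of 60 of the 65 members matched the RefSeq table (GRCh38.p14, from 250 bases before the transcript start to 50 after it). Those of 4 genes are printed because they hold the largest rise and the largest fall among the H2B genes (HIST2H2BF and HIST1H2BB) and among the H4 genes (HIST1H4H and HIST1H4I). Capitals mark, on either strand, CCAAT (the box bound by the factor NF-Y), TATAAA (the TATA box) and ATTTGCAT (the octamer bound by POU2F1).
HIST2H2BF (chr1:149812321-149812620, minus strand): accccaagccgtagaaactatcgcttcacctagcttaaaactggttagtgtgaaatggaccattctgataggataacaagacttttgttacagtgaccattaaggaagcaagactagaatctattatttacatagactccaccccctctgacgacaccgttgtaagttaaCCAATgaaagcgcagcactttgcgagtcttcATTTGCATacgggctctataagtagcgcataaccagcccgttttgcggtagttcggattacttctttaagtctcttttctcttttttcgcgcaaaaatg
HIST1H2BB (chr6:26043664-26043963, minus strand): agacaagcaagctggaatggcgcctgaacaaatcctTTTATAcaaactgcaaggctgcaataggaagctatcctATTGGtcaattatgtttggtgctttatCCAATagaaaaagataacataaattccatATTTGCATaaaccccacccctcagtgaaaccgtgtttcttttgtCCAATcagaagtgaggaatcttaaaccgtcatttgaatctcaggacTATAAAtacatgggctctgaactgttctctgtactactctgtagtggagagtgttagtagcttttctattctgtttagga
HIST1H4H (chr6:26285485-26285784, minus strand): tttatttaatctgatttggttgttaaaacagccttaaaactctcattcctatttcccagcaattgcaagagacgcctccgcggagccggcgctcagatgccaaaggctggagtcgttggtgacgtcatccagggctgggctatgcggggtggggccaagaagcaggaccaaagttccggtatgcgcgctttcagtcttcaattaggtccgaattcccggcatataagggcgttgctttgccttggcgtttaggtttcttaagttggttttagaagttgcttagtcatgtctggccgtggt
HIST1H4I (chr6:27139032-27139331, plus strand): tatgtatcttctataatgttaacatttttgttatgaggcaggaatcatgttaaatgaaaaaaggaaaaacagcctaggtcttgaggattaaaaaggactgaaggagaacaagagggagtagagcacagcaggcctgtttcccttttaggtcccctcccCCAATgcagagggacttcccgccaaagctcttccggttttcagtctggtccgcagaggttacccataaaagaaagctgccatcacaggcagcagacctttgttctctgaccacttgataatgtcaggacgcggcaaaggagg

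Both H2B promoters held CCAAT and the octamer, and that of HIST1H2BB, the gene that fell, also held TATAAA, which that of HIST2H2BF did not. Of the H4 promoters, that of HIST1H4H held none of the searched letters and that of HIST1H4I held 1 CCAAT. The GENCODE models of both H4 genes start upstream of the RefSeq start used here.

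Over the family, CCAAT was in 50 of 60 member promoters (83.3%), against 35.7% of all 27305 promoters in the table. TATAAA was in 41 (68.3%), against 11.95% of all, and the octamer in 26 (43.3%), against 1.80% of all. The E-box CACGTG, the letters bound by MYC with MAX, was in 0 of 60, against 7.43% of all. The types differed in what they held. The octamer was in 11 of 16 H2A and 14 of 18 H2B promoters, but in 1 of 13 H3 and 0 of 13 H4 promoters. These counts are not independent. In 11 head-to-head H2A and H2B pairs the 2 windows overlap, and both hold the octamer in 8 of them. These 11 include HIST1H2AK with HIST1H2BN but not HIST1H2AH with HIST1H2BK, since the HIST1H2AH promoter was not matched. The H3 promoter with the octamer, that of HIST1H3D, is the same RefSeq window as that of HIST1H2AD. CCAAT was in every matched H2A, H2B and H3 promoter and in 3 of 13 H4 promoters.

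The first question was how many of these genes could be measured. Of the 65, 49 had enough reads to be tested and 16 did not, of which 8 had 0 reads in all 6 libraries and the rest at most 11 in any library. Reads that fit several places were left out by the authors' counting, and 10 of the 16 untested members had under 25% of their 100-base words unique among annotated transcripts. They include HIST2H2AA3 with HIST2H2AA4, HIST2H3A (H3C15) with HIST2H3C (H3C14), and HIST2H4A (H4C14) with HIST2H4B (H4C15), which are pairs with identical coding sequence. A count near 0 there says nothing about expression.

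HIST1H3D and HIST1H2AD lie within exons of AL031777.3 on the same strand, over 100% and 98.0% of their own exon bases, and reads that fit both genes are ambiguous. AL031777.3 itself had 4.65, 4.13 and 5.93 CPM in JQ1, against 1.18, 1.14 and 1.44 CPM in DMSO. The testis genes HIST1H2AA and HIST1H2BA, whose sequence is unique, had 0 reads in every library, and HIST3H3 (H3-4), also known from testis, had 1 read in all.

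Most of the 49 tested members were abundant, and 43 had over 1000 reads in every library. The others were scarcer, the lowest being HIST1H2AM with 4 to 17 reads in a library. Of the 49, 41 had at least 90% unique 100-base words. The least certain of the tested genes are HIST1H4J and HIST1H4K, which share their coding sequence (22.3% and 0% unique words), and HIST1H2AM, 88.0% of which lies under HIST1H3J. Unique words were also few in HIST1H3J (41.6%), HIST1H2AI (42.3%) and HIST2H3D (48.7%), and the changes given below for these genes carry that limit.

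Under JQ1 more core histone genes rose than fell. Of the 49 tested members 22 rose and 2 fell (edgeR quasi-likelihood test, Benjamini-Hochberg adjusted p under 0.05 over 13975 genes), and 25 did not pass. Those are 44.9% and 4.08% of the members, against 15.9% of all tested genes called higher and 20.6% called lower (36.6% in either direction). The median log2 fold change of JQ1 over DMSO was 0.37 over the members and 0.0036 over all tested genes. The rises were modest, from 1.27-fold to 2.18-fold with a median of 1.44-fold, and 7 of them exceeded 1.5-fold.

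Of the 25 members that did not pass, 18 had a positive and 7 a negative log2 change, from -0.36 to 0.43. With the replicate number as a block, 32 members were higher and 3 lower, against 27.3% and 29.6% of all tested genes (56.9% in either direction). Within pairs of libraries of the same number, 33 members were higher in all 3 pairs and 3 lower in all 3 (HIST1H2BB, HIST1H4I and HIST1H3E). The share of all tested genes with the same direction in all 3 pairs was not counted, so these numbers are a description only. The groups did not overlap, with JQ1 higher, for 23 members (46.9%, against 22.9% of all tested genes), and with JQ1 lower for 1 (2.04%, against 26.0%).

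**Figure D1:**
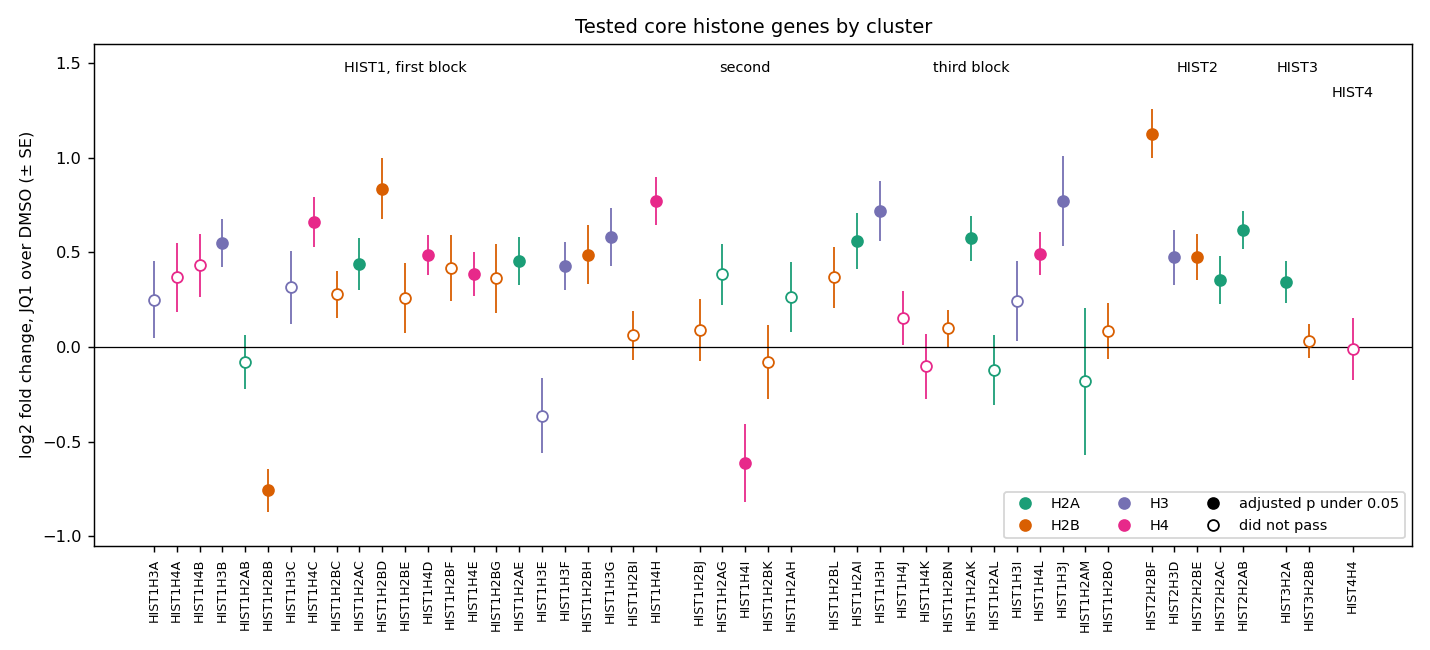
The log2 fold change of JQ1 over DMSO (vertical axis, bars ± SE) of the 49 tested core histone genes in genome order within each cluster, coloured by histone type, with filled points for an adjusted p under 0.05. HIST2H2BF stands highest at 1.13, and HIST1H2BB and HIST1H4I are the 2 filled points under 0.

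The libraries did not contribute evenly. JQ1 replicate 3 was the highest of the 6 libraries for 45 of 49 members, and DMSO replicate 2 was the lowest for 31. Without JQ1 replicate 3 the members called higher numbered 13, and the median log2 change of all 49 tested members was 0.21. Without DMSO replicate 2 the members called higher also numbered 13, and the median of all 49 was 0.30. Of the 24 called members 14 were called in every fit that left out 1 library, 13 of them higher and HIST1H2BB lower. The 9 calls lost without JQ1 replicate 3 and the 9 lost without DMSO replicate 2 were those of HIST2H3D, HIST2H2AC, HIST3H2A, HIST1H2AC, HIST1H4E, HIST1H2AE, HIST1H3F, HIST1H2BH and HIST1H3J in each case.

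Summed over all members, core histone genes took 2.19%, 1.86% and 2.64% of gene counts in JQ1 replicates 1, 2 and 3, against 1.80%, 1.54% and 1.86% in DMSO replicates 1, 2 and 3. The means were 2.23% ± 0.390 in JQ1 and 1.73% ± 0.170 in DMSO (SD, n = 3 each; 2-sided exact permutation test p = 0.1, the smallest that 3 against 3 allows). The groups did not overlap, but JQ1 replicate 2 (1.8622%) lay barely above DMSO replicate 3 (1.8613%). The difference of 0.50 percentage points fell to 0.29 when JQ1 replicate 3 was left out and to 0.40 when DMSO replicate 2 was, each at an exact permutation p = 0.2, the smallest that 2 against 3 allows.

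In bulk RNA, more cells in S phase and more histone mRNA per cell cannot be told apart. A list of 16 S-phase genes, none of them histones, summed to 6389, 4841 and 6845 CPM in JQ1, against 6103, 4072 and 6114 CPM in DMSO. In both groups replicate 2 was the lowest for that list, as it was for the core histone share. Of the 16 genes 1 rose (MCM6 of the replicative helicase, 0.43 ± 0.13) and 0 fell, with 10 higher and 2 lower under the replicate block. Over all tested genes the shares were 15.9% higher and 20.6% lower, and 27.3% and 29.6% with the block. MCM6 no longer passed without replicate 1 or 3 of JQ1 or DMSO replicate 2 (adjusted p from 0.067 to 0.11). The part of S-phase content in the histone result was not tested.

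Linker H1 genes, which lie among the HIST1 genes and are also replication-dependent, had a larger share in every JQ1 library than in any DMSO library. They took 0.696% ± 0.0961 of gene counts in JQ1 and 0.520% ± 0.0449 in DMSO (SD, n = 3 each; exact permutation p = 0.1). HIST1H1E (H1-4) rose by 0.70 ± 0.13 and HIST1H1B (H1-5) by 0.51 ± 0.14, and these were the 2 called of 5 tested (4 with the replicate block). Among all tested genes 15.9% were called higher, and 27.3% with the block. HIST1H1B no longer passed without JQ1 replicate 3 (adjusted p = 0.060) or DMSO replicate 2 (0.058). The log2 ratio of core to H1 counts was 1.68 ± 0.0789 in JQ1 and 1.73 ± 0.0569 in DMSO (SD, n = 3 each). The groups overlapped (difference -0.06, exact permutation p = 0.4, which leaves the replicate numbers out). Within each pair of the same number the ratio was lower in JQ1. It was 1.61, 1.66 and 1.76 in JQ1 replicates 1, 2 and 3, against 1.69, 1.71 and 1.80 in DMSO replicates 1, 2 and 3.

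**Figure D2:**
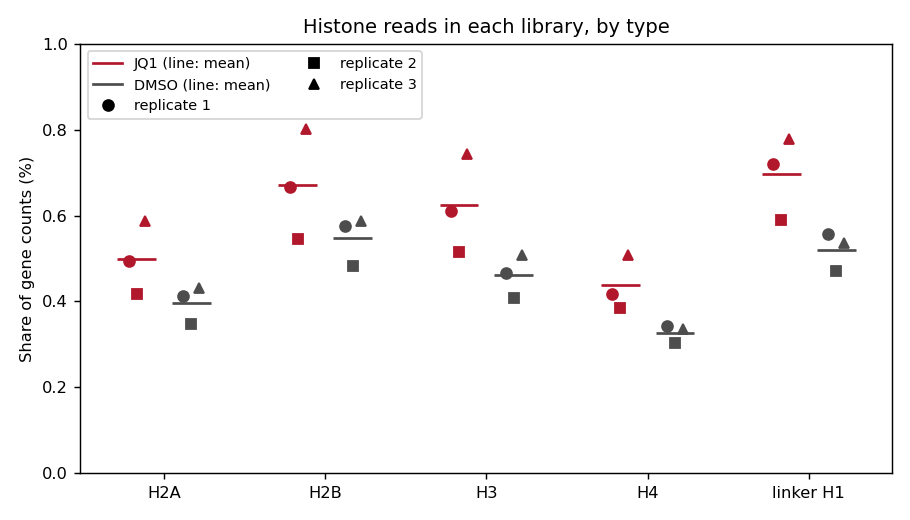
Share of each library's gene counts (vertical axis, %) in H2A, H2B, H3, H4 and linker H1 genes, with JQ1 left of DMSO, a symbol per replicate number and a line at the mean of 3 libraries. The groups separate for H3, H4 and H1, and JQ1 replicate 2 falls among the DMSO libraries for H2A and H2B.

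The types were compared by their share of gene counts and against each other within each library. H3 took 0.624% ± 0.114 of gene counts in JQ1 and 0.461% ± 0.0504 in DMSO, and H4 took 0.437% ± 0.0641 in JQ1 and 0.327% ± 0.0202 in DMSO (SD, n = 3 each; exact permutation p = 0.1 for each, no overlap). H2A took 0.500% ± 0.0850 in JQ1 and 0.397% ± 0.0443 in DMSO (exact permutation p = 0.2), and H2B took 0.671% ± 0.129 in JQ1 and 0.548% ± 0.0579 in DMSO (exact permutation p = 0.3), both with overlap. Within each pair of libraries of the same number, the H2A and H2B shares were also higher in JQ1. The log2 ratio of H2A plus H2B to H3 plus H4 counts, which does not depend on scaling between libraries, was 0.17, 0.094 and 0.15 in JQ1 replicates 1, 2 and 3. In DMSO replicates 1, 2 and 3 it was 0.29, 0.22 and 0.27. The ratio was lower in every JQ1 library than in any DMSO library (difference -0.12, exact permutation p = 0.1, the smallest possible).

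As a log2 ratio to all other core histone genes within a library, H3 was higher in JQ1 by 0.098 and H2B had a difference of -0.11, both without overlap (exact permutation p = 0.1, 0.15 adjusted over 9 ratios of types and clusters). H2A (-0.040, adjusted exact p = 0.26) and H4 (0.069, adjusted exact p = 0.45) overlapped between the groups.

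By number of genes, 7 of 12 tested H2A genes rose and 0 fell, 4 of 16 H2B genes rose and 1 fell, 6 of 10 H3 genes rose and 0 fell, and 5 of 11 H4 genes rose and 1 fell. Over all tested genes 15.9% were called higher and 20.6% lower. The medians were 0.37 for H2A, 0.27 for H2B, 0.45 for H3 and 0.39 for H4. With the replicate block 8 H2B genes were higher and 1 lower, against 27.3% and 29.6% of all tested genes. Whether the types differ in these numbers of genes was not tested.

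HIST2H2BF (H2BC18; ENSG00000203814.6, chromosome 1, 149782689 to 149812373, minus strand), an H2B gene at one end of the HIST2 cluster, had the largest change of any member. It had 407, 339 and 449 CPM in JQ1, against 206, 163 and 179 CPM in DMSO, so every JQ1 library was well above every DMSO library. The log2 fold change was 1.13 ± 0.13 (edgeR adjusted p = 0.00015), or 2.18-fold, and it was the only member past 2-fold. Its coding sequence and that of HIST2H2BE are the closest pair among the 16 tested H2B genes of equal coding length (94.2% identical). HIST2H2BE (H2BC21) rose by 0.47 ± 0.12, with 380, 326 and 431 CPM in JQ1 and 293, 252 and 272 CPM in DMSO.

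HIST1H2BD (H2BC5; chromosome 6, 26158146 to 26171349), known to give both stem-loop and polyadenylated mRNA, came second. It had 1086, 887 and 1357 CPM in JQ1 and 675, 534 and 656 CPM in DMSO, a log2 change of 0.84 ± 0.16 (edgeR adjusted p = 0.0028) with no overlap. HIST1H2BH (H2BC9) rose by 0.49 ± 0.16, which no longer passed without replicate 1 or 3 of JQ1 or replicate 2 or 3 of DMSO (adjusted p up to 0.12).

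HIST1H2BB (H2BC3; ENSG00000276410.3, chromosome 6, 26043277 to 26043657, minus strand) went the other way. It had 61.1, 57.2 and 69.6 CPM in JQ1, against 122, 96.5 and 98.9 CPM in DMSO, with no overlap between groups. The log2 change was -0.76 ± 0.11 (edgeR adjusted p = 0.00066), from -0.84 to -0.64 when any 1 library was left out. All of its 100-base words are unique among annotated transcripts. It rested on 1511, 1218 and 1080 reads in JQ1 and 2475, 2458 and 2609 in DMSO, and per kilobase of exon it was well below the most abundant H2B genes.

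HIST1H2BI, HIST1H2BK and HIST1H2BO, which are abundant H2B genes per kilobase of exon, did not pass the test. That rank depends on the annotation, which gives only 381 exon bases for each. By mean CPM in JQ1 (446, 400 and 415) they lay below HIST1H2BD (1110), HIST1H2BH (895) and HIST1H2BC (752). HIST1H2BI (H2BC10) had 438, 378 and 522 CPM in JQ1 and 464, 390.03 and 428 CPM in DMSO, a log2 change of 0.061 ± 0.13. HIST1H2BK (H2BC12) had a change of -0.080 ± 0.20 and HIST1H2BO (H2BC17) one of 0.086 ± 0.15, and for all 3 genes the groups overlapped.

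**Figure D3:**
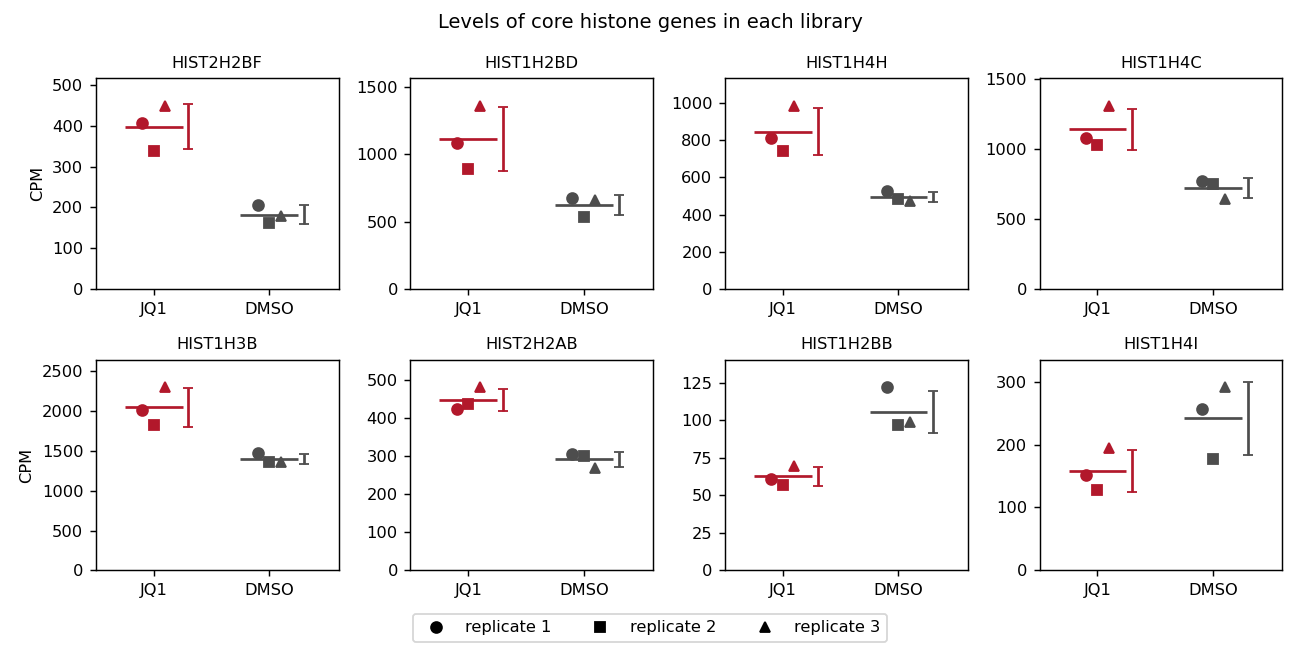
CPM (counts relative to library size, scaled by TMM; vertical axes start at 0) of 8 core histone genes in each library, with JQ1 left of DMSO, a symbol per replicate number, a line at the mean and a bar of ± SD over 3 libraries. The first 6 genes lie higher in every JQ1 library, HIST1H2BB lies lower in every JQ1 library, and for HIST1H4I the JQ1 and DMSO libraries overlap.

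Among H4 genes HIST1H4H (H4C8; ENSG00000158406.4, chromosome 6, 26277609 to 26285638) had the largest rise. It had 810.1, 741 and 985 CPM in JQ1 and 528, 484 and 473 CPM in DMSO, a log2 change of 0.77 ± 0.13 (edgeR adjusted p = 0.0011). HIST1H4C (H4C3; chromosome 6, 26103876 to 26104310), the most abundant H4 gene per kilobase, had 1079, 1029.6 and 1306 CPM in JQ1 and 773, 752 and 639 CPM in DMSO. Its change was 0.66 ± 0.13 (edgeR adjusted p = 0.0032), and JQ1 and DMSO libraries did not overlap for either gene. HIST1H4L (H4C13), HIST1H4D (H4C4) and HIST1H4E (H4C5) rose by 0.49 ± 0.11, 0.48 ± 0.11 and 0.39 ± 0.12.

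HIST1H4I (H4C9; ENSG00000276180.1, chromosome 6, 27138588 to 27139881), in the second HIST1 block, had 151, 128 and 195 CPM in JQ1, against 257, 177 and 291 CPM in DMSO. JQ1 replicate 3 lay above DMSO replicate 2, but within each pair of the same number JQ1 was lower. The log2 change was -0.61 ± 0.20 (edgeR adjusted p = 0.046, and 2.2e-09 with the replicate block). It no longer passed without replicate 1 or 2 of JQ1 or replicate 1 or 3 of DMSO, with changes from -0.58 to -0.45 and adjusted p from 0.11 to 0.13.

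HIST1H3B (ENSG00000274267.1, chromosome 6, 26031650 to 26032060) was the most abundant core histone gene of all per kilobase of exon and took 9.01% of core histone reads in JQ1 and 8.25% in DMSO. It encodes H3.1, the replication-coupled form of H3. It had 2015, 1816 and 2294 CPM in JQ1 and 1467, 1356 and 1359 CPM in DMSO, a log2 change of 0.55 ± 0.13 (edgeR adjusted p = 0.0068). Every JQ1 library was above every DMSO library. HIST1H3J (H3C12) rose by 0.77 ± 0.24 and HIST1H3H (H3C10) by 0.72 ± 0.16, though HIST1H3J shares exon bases with HIST1H2AM and has 41.6% unique words. It no longer passed without replicate 1 or 3 of JQ1 or replicate 1 or 2 of DMSO (adjusted p from 0.065 to 0.098).

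The other H3 genes that rose were HIST1H3G (H3C8) by 0.58 ± 0.15, HIST2H3D (H3C13) by 0.47 ± 0.15 and HIST1H3F (H3C7) by 0.43 ± 0.13. HIST1H3C, also among the 3 most abundant H3 genes per kilobase, had 600.2, 496 and 820.0 CPM in JQ1 and 542, 415 and 584 CPM in DMSO. Its groups overlapped, and its change of 0.31 ± 0.19 did not pass (edgeR adjusted p = 0.23, and 0.00067 with the replicate block). HIST1H3E (H3C6), which was named after its values were seen, was scarce, at 6.99, 8.07 and 5.80 CPM in JQ1 and 7.78, 11.4 and 7.69 CPM in DMSO, and was the one further gene called lower with the block (adjusted p = 0.018).

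No H2A gene fell. HIST2H2AB (H2AC21; chromosome 1, 149887524 to 149887916) had the largest H2A change, with 425, 439 and 481 CPM in JQ1 and 307, 300.2 and 269 CPM in DMSO. The log2 change was 0.62 ± 0.10 (edgeR adjusted p = 0.0011), and the groups lay well apart. HIST1H2AE (H2AC8), the most abundant H2A gene per kilobase in JQ1, had 932, 807 and 1028 CPM in JQ1 and 749, 633 and 637 CPM in DMSO, a change of 0.45 ± 0.13. The groups did not overlap, but the call was lost without JQ1 replicate 3 and without DMSO replicate 2 (adjusted p = 0.066 and 0.061).

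HIST1H2AK (H2AC15) rose by 0.57 ± 0.12, HIST1H2AI (H2AC13) by 0.56 ± 0.15, HIST1H2AC (H2AC6) by 0.44 ± 0.14, HIST2H2AC (H2AC20) by 0.35 ± 0.13 and HIST3H2A (H2AC25) by 0.34 ± 0.11. The exons of HIST1H2AK lie wholly within an exon of HIST1H2BN on the other strand, so its reads can be told apart only where the strand is kept, as it is here. HIST1H2AH (H2AC12) was abundant too, with 614, 486 and 804 CPM in JQ1 and 581, 430.2 and 573 CPM in DMSO. Its groups overlapped, and a change of 0.27 ± 0.19 did not pass (edgeR adjusted p = 0.29, and 0.0057 with the replicate block).

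By cluster, all 5 tested HIST2 genes rose (HIST2H2BF, HIST2H2AB, HIST2H2BE, HIST2H3D and HIST2H2AC). The HIST2H2AC call (adjusted p = 0.049) held among the fits with 1 library left out only without JQ1 replicate 2 (adjusted p from 0.051 to 0.18 in the others) and was also lost with unstranded counts (0.059) and with library size only (0.11). HIST2H3D did not pass without replicate 1 or 3 of JQ1, without replicate 1 or 2 of DMSO (0.056 to 0.094) or with library size only (0.067). In the first HIST1 block 11 of 23 rose and 1 fell, in the third 5 of 13 rose and 0 fell, and in the second 0 of 5 rose and 1 fell. Of the 2 tested HIST3 genes 1 rose, and HIST4H4 had a change of -0.013 ± 0.16. All these counts by cluster are read against 15.9% of all tested genes called higher and 20.6% called lower. With the replicate block 17 genes of the first HIST1 block were higher and 2 lower, and 2 of the second were higher and 1 lower. The block called 27.3% of all tested genes higher and 29.6% lower. The medians were 0.42 in the first HIST1 block, 0.091 in the second, 0.24 in the third and 0.47 in HIST2.

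The clusters were also compared within each library, as the ratio of a cluster's reads to those of all other core histone genes, which leaves out the scaling between libraries. HIST2 genes gave 7.49% ± 0.414 of core histone reads in JQ1 and 6.53% ± 0.209 in DMSO, and the second HIST1 block gave 10.9% ± 0.639 in JQ1 and 13.3% ± 1.12 in DMSO (SD, n = 3 each). The HIST2 log2 ratio was 0.21 higher in JQ1 and that of the second block had a difference of -0.32, and for both no JQ1 library overlapped a DMSO library (exact permutation p = 0.1, 0.15 adjusted over 9 ratios). The first HIST1 block was also higher without overlap (0.12) and HIST3 lower (-0.27), at the same p, whereas the third HIST1 block overlapped (-0.02). With 3 libraries against 3, no such ratio could pass an adjusted p of 0.05.

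Of 10 tested protein-coding genes inside the HIST1 span without a histone name 1 rose and 5 fell, against 15.9% and 20.6% of all tested genes. The butyrophilin genes BTN3A1, BTN3A3, BTN3A2 and BTN2A1, which act in the recognition of cells by gamma-delta T cells, fell by 1.04 ± 0.11, 0.94 ± 0.12, 0.82 ± 0.10 and 0.29 ± 0.09, and ABT1, an activator of basal transcription, fell by 0.45 ± 0.08. The BTN2A1 call held among the fits with 1 library left out only without JQ1 replicate 2 (adjusted p up to 0.13 in the others). The gene that rose was AL031777.3 (1.95 ± 0.23), whose exons cover HIST1H3D and HIST1H2AD as described above.

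Many H2A and H2B genes stand head to head and share the stretch between their starts. Among the members 11 such pairs had starts 219 to 331 bases apart in GENCODE, and in 8 of them both genes were tested. HIST1H2AK with HIST1H2BN, a pair by its RefSeq promoter windows, is left out, because its GENCODE models overlap. The H2A gene had the more positive change in 6 of the 8, with a difference of 0.17 in the median. The largest of the 8 was between HIST1H2AH (0.27) and HIST1H2BK (-0.080). Their log2 ratio in the 3 libraries was 0.62, 0.73 and 0.66 in JQ1 and 0.36, 0.33 and 0.28 in DMSO. The changes of HIST1H2AK (0.57) and HIST1H2BN (0.097), which are not among the 8, lay further apart.

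The ratio of H2A to H2B within a library did not overlap between the groups in 5 of the 8 pairs. Among single tested genes 48.9% did not overlap in CPM, and the share for ratios of other gene pairs was not counted. The H2A to H2B ratio was higher in JQ1 for HIST3H2A with HIST3H2BB, HIST1H2AG with HIST1H2BJ, HIST1H2AH with HIST1H2BK, and HIST1H2AI with HIST1H2BL, and lower for HIST2H2AC with HIST2H2BE. Each had an exact permutation p = 0.1, the smallest possible, and 0.16 adjusted over the 8 pairs. HIST1H2AM had at most 17 reads in a library, so its pair with HIST1H2BO carries little information.

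**Figure D4:**
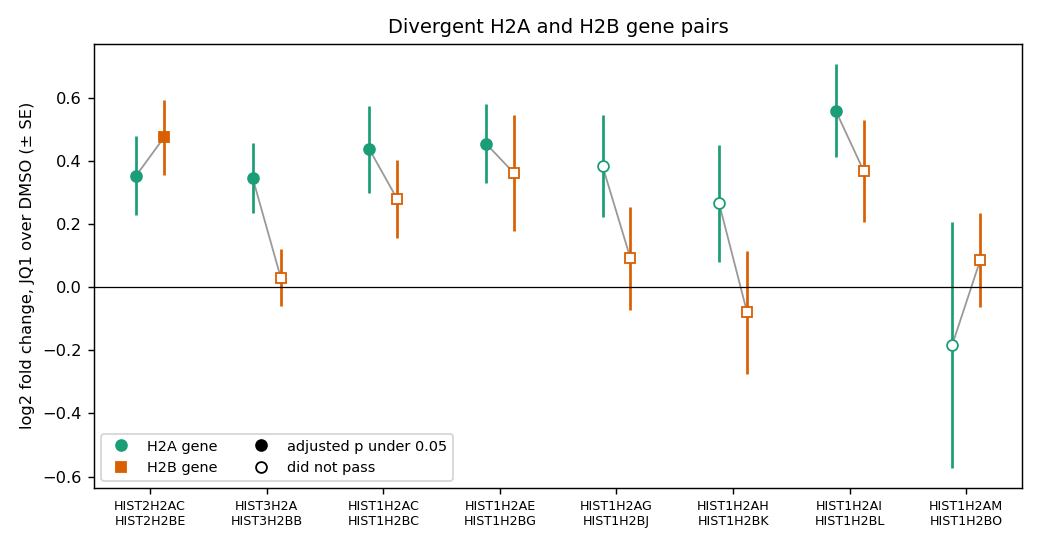
The log2 fold change of JQ1 over DMSO (vertical axis, bars ± SE) of the H2A gene (circle) and the H2B gene (square) in the 8 head-to-head pairs by GENCODE starts with both tested, filled for an adjusted p under 0.05. The H2A gene lies above its partner in 6 pairs, and below it for HIST2H2AC with HIST2H2BE and HIST1H2AM with HIST1H2BO.

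Members known to give polyadenylated mRNA as well (HIST1H2BD, HIST1H2AC, HIST2H2BE, HIST1H2BK, HIST1H2BC, HIST4H4 and HIST3H2A) had 4 of 7 higher and 0 lower, with a median of 0.34. The other 42 tested members had 18 higher and 2 lower, with a median of 0.37. Members whose longest annotated end ran over 500 bases past the stop codon had 8 of 16 higher and a median of 0.40, and those with no annotated base past it had 9 of 22 higher, 1 lower and a median of 0.29. Members with CCAAT in the promoter had a median of 0.36 and those without it 0.39, and members with the octamer had 0.32 and those without it 0.41. These counts and medians are given as a description only, beside 15.9% of all tested genes called higher and 20.6% called lower.

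The genes that act on histone mRNA and histones are given by role. Their counts are read against 15.9% of all tested genes called higher and 20.6% called lower (27.3% and 29.6% with the replicate block). No list was tested as a whole. Of 10 tested genes that drive transcription of the clusters, 3 rose and 0 fell (6 and 0 with the replicate block). CDK2, the kinase that activates NPAT, had 281, 219 and 266 CPM in JQ1 and 197, 142 and 183 CPM in DMSO, without overlap, a log2 change of 0.56 ± 0.14. CASP8AP2 (FLASH), a histone locus body protein, rose by 0.37 ± 0.12 and HINFP, an activator of H4 genes, by 0.27 ± 0.09. HINFP passed in no fit with 1 library left out (adjusted p from 0.058 to 0.097), and CASP8AP2 did not pass without replicate 1 or 3 of JQ1 or replicate 1 or 2 of DMSO (0.063 to 0.11). NPAT itself had 147, 134 and 170 CPM in JQ1 and 122, 118 and 131 CPM in DMSO, and its change of 0.28 ± 0.10 did not pass (edgeR adjusted p = 0.057, and 0.00034 with the block).

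Of 12 tested genes of stem-loop binding and 3′ end processing 3 rose and 3 fell (4 and 6 with the block). SLBP, the stem-loop binding protein, had 397, 276 and 348 CPM in JQ1 and 246, 167 and 191 CPM in DMSO. Every JQ1 library was above every DMSO library, and the log2 change was 0.76 ± 0.17 (edgeR adjusted p = 0.0063). The cap-binding subunit NCBP2 also rose, by 0.28 ± 0.09, and did not pass without replicate 1 or 3 of JQ1 or replicate 1 or 3 of DMSO (adjusted p from 0.059 to 0.095). CASP8AP2 is in this list too. Parts of the U7 snRNP, which cuts histone pre-mRNA, fell: LSM11 by 0.54 ± 0.12 and LSM10 by 0.60 ± 0.15. ZNF473, a zinc finger protein that binds the U7 snRNP, had 23.2, 30.3 and 23.3 CPM in JQ1 and 38.9, 40.6 and 40.4 CPM in DMSO, a change of -0.64 ± 0.12.

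**Figure D5:**
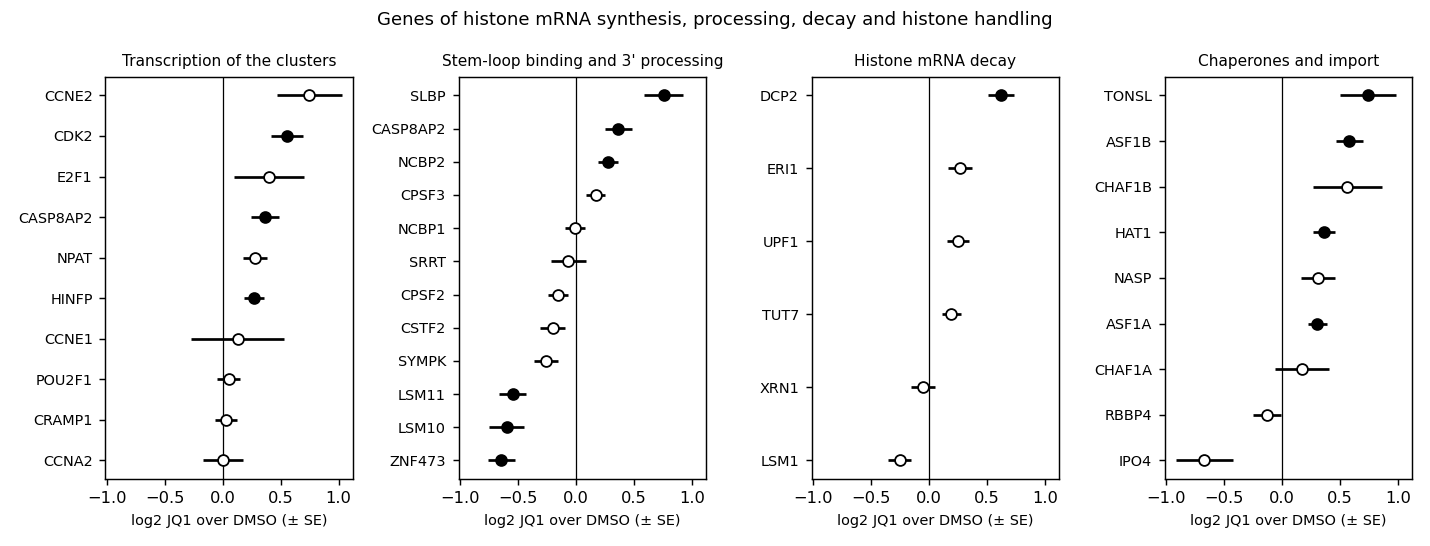
The log2 fold change of JQ1 over DMSO (horizontal axis, bars ± SE) of genes that act on histone transcription, 3′ end processing, histone mRNA decay and histone handling, filled for an adjusted p under 0.05. SLBP and DCP2 lie right of 0 as filled points, and ZNF473, LSM10 and LSM11 lie left of it.

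Of 6 tested genes of histone mRNA decay 1 rose and 0 fell (4 and 1 with the block). DCP2, the decapping enzyme, had 299, 357 and 367 CPM in JQ1 and 206, 248 and 211 CPM in DMSO, a log2 change of 0.62 ± 0.12 without overlap. UPF1, a helicase that acts on histone mRNA at the end of S phase, had a change of 0.25 ± 0.09 that did not pass (edgeR adjusted p = 0.055), and ERI1, the exonuclease of the stem-loop, one of 0.27 ± 0.10. LSM1 went the other way, with a change of -0.25 ± 0.10 and no overlap, and did not pass (edgeR adjusted p = 0.065). With the block it was the 1 gene of this list called lower (edgeR adjusted p = 0.0016).

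Of 9 tested genes of histone chaperoning and import 4 rose and 0 fell (7 and 1 with the block). The H3-H4 chaperones ASF1B and ASF1A rose by 0.58 ± 0.11 and 0.30 ± 0.08, HAT1, which acetylates new H4, by 0.36 ± 0.10, and TONSL, a reader of new H4, by 0.74 ± 0.24 with overlap between the groups. TONSL did not pass without replicate 1 or 3 of JQ1 or replicate 1 or 2 of DMSO (adjusted p from 0.075 to 0.12), HAT1 without JQ1 replicate 3 (0.056) or DMSO replicate 2 (0.054), and ASF1A without JQ1 replicate 1 (0.051). The ASF1B level was 172, 149 and 156 CPM in JQ1 and 121, 90.3 and 108 CPM in DMSO, so no libraries overlapped.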

How the data were processed

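Total RNA was measured in 3 JQ1 and 3 DMSO libraries, grouped by title. The deposited files hold raw read counts per gene, not normalised, in 1 column that ignores strand and in 1 for each strand. Reads were set against GRCh38, per the submitters' processing notes, while aligner version and annotation release were not given in the sources used here. The layout is that of STAR gene counts, which leave out reads that map to several places (14.1% to 15.7% here) or to several genes (3.38% to 3.88%), so histone genes with near-identical copies are undercounted. The first 4 lines of read classes stayed out of all totals. Tests used the reverse-strand column, with 20.9 to 22.6 times the counts of the forward one. No columns of other samples were present.

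Names and positions are from GENCODE 29 (64 of 65 members matched with version; 57492 of 58096 identifiers without version). Genes kept by filterByExpr (minimum count 10, minimum total 15) numbered 13975 and were scaled by TMM (0.965 to 1.06). Differences were tested with edgeR 4.0.16 (R 4.3.3), quasi-likelihood, robust, group only, Benjamini-Hochberg over all tested genes. CPM are scaled by TMM, and log2 changes carry SE. Shares and ratios used 2-sided exact permutation tests. Intervals and SEs do not cover PCR duplication, since the reads carry no molecular identifiers.

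Titles number the replicates 1 to 3 in both groups, and deviations from group means correlated between same-numbered libraries (0.326, 0.433 and 0.371 across genes), so these can be taken as pairs. What a number marks is not stated. All library pairs within a group differed beyond sampling noise (chi-square per degree of freedom 15.4 to 31.9). Members named were all those called and the 3 of each type with most reads per kilobase, and up to 4 genes per list with the smallest p. The members and lists were chosen with earlier results of these data known. On simulated data for this comparison (13651 genes) 78.9% of 95 genes changed 2-fold and 47.4% of 97 changed 1.5-fold were recovered, with 10 of 13459 unchanged genes called. Alternatives were DESeq2 1.42.0, limma-voom (limma 3.58.1), other scalings and filters, unstranded counts, totals without mitochondrial and small RNA genes, the replicate block and each library left out.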

Additional observations from a re-analysis of the deposited data

Results flagged for a closer look

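The reverse-strand column served all comparisons, and 1 member also held many reads in the column of the other strand. HIST1H2BN had 2490, 1980 and 1855 opposite-strand reads in JQ1 replicates 1, 2 and 3, against 1325, 1674 and 2089 in DMSO replicates 1, 2 and 3. As CPM of gene counts, not scaled by TMM, that is 102.1 ± 13.6 in JQ1 and 71.7 ± 10.7 in DMSO (SD, n = 3 each), without overlap between the groups, a ratio of 1.42. HIST1H2AK, whose exons lie on that strand within HIST1H2BN, had 2408, 1930 and 1824 sense reads in JQ1 and 1287, 1631 and 2042 in DMSO. The other column counts such reads for HIST1H2BN, so the 2 sets of counts are not separate observations. Over all other members opposite-strand reads made up 0.175% ± 0.0178 of core histone reads in JQ1 and 0.180% ± 0.0194 in DMSO (SD, n = 3 each). Groups of 3 libraries were not searched for outlying values.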

How the results depend on the processing

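The count of members called higher (22) was 22 with relative log expression or upper-quartile factors, a filter of 1 CPM in 3 libraries, limma-voom, or mitochondrial and small RNA genes left out. It was 16 with library size only, 20 with unstranded counts, 25 with DESeq2 and 29 with no filter. With library size only the median of all tested genes was -0.059. The count called lower (2) became 4 with no filter, which adds HIST1H2AJ (0, 0 and 2 reads in JQ1, against 10, 6 and 2 in DMSO) and HIST1H2BM (1, 0 and 1 in JQ1, against 11, 3 and 6 in DMSO). With the replicate block as pairing, 32 were called higher and 3 lower, 11 of them not called without it, and no call was lost. Of the 5 abundant members that did not pass, it called HIST1H3C and HIST1H2AH. Leaving out 1 library gave 13 to 28 higher, 1 to 2 lower and a median log2 change of 0.21 to 0.50. Restricting to the 41 tested members with unique sequence, an alternative chosen after seeing the data, gave 18 higher, 2 lower and a median of 0.37. The sign turned in at least 1 setting for 10 tested members, none of them called: HIST3H2BB, HIST4H4, HIST1H2AB, HIST1H2BJ, HIST1H4K, HIST1H2AL, HIST1H2AM, HIST1H2BI (-0.0010 with library size only, and -0.067 to 0.17 with 1 library left out), HIST1H2BK (-0.29 to 0.0999 with 1 library left out) and HIST1H2BO (-0.063 to 0.22 with 1 library left out). The cause of these shifts was not tested. The difference in core histone share was 0.29 to 0.68 percentage points, that in the log2 core to H1 ratio -0.10 to -0.025 and that in the log2 ratio of H2A plus H2B to H3 plus H4 -0.14 to -0.099 with 1 library left out. At this depth the 16 untested members had at most 11 reads in a library.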
